A study of Mus musculus with 16 samples.

Results

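The 10 genes described here are transcription factors and regulators of the ATF4 branch of the cellular stress response: Atf4, Atf3, Atf5, Ddit3, Cebpb, Trib3, Ppp1r15a, Sesn2, Ddit4 and Chac1. They were chosen by name, with earlier results of these data known although the rule itself uses no measured value, from a table of 45724 genes in cultured mouse neurons. The names matched 11 rows, because Ddit3 stands in the table under 2 gene identifiers, and all 10 genes passed the filter on low values in every comparison. Neurons from the postnatal day 0 brain of C57BL/6 mice were grown in primary culture with an added peptide, NP24, Tβ10 or Tβ4, or with Dulbecco's phosphate-buffered saline (DPBS) as control. Each of the 4 groups had 4 libraries of total RNA, 16 in all, and the strain, tissue and age were the same in every group. The design text attributes the peptides to the SCO, which is read here as the subcommissural organ, a secretory structure lining the ventricular system of the brain. Tβ10 and Tβ4 are the usual names of thymosins β10 and β4, which sequester monomeric actin. The dose and duration of exposure, the sequence of NP24, and whether the replicates came from separate cultures are not given in the sources used here, so each p measures the spread between these libraries, which may be technical.

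Cells under stress (unfolded protein in the endoplasmic reticulum, amino acid shortage, haem shortage or viral RNA) activate kinases that phosphorylate the translation factor eIF2. This lowers protein synthesis in general while the mRNA of ATF4 is translated more, so that much of the control of ATF4 lies in translation, which RNA levels do not measure. ATF4 is a basic leucine zipper factor that induces genes of amino acid supply together with further transcription factors, feedback inhibitors and regulators of growth and cell death. In neurons the branch is known for its part in responses to injury, axon damage and nutrient shortage.

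The libraries held 11642242 to 38254320 gene reads each, and 1 read was worth 0.536 to 1.71 normalized counts, the unit of all levels below. All 13 neuron markers were detected in every library, and their summed level was 85327 to 88716 with NP24, 77227 to 96476 with Tβ10, 63146 to 81116 with Tβ4 and 71962 to 79240 in controls. Markers of other cell types were present as well. Summed over 13 genes, microglia and macrophage markers reached 1515 to 1655 with NP24, 1369 to 1895 with Tβ10, 1799 to 3105 with Tβ4 and 1854 to 2269 in controls, of which Cx3cr1 alone gave 1190 to 1602 in each library. The 9 fibroblast and meningeal markers summed to 2417 to 2667 with NP24, 2076 to 2980 with Tβ10, 3570 to 6490 with Tβ4 and 3033 to 3981 in controls. Most of this sum came from Fn1 and Pdgfra (control means 1490 and 1222), and Pdgfra was also listed as an oligodendrocyte lineage marker. The control means of Col1a1, Col1a2 and Col3a1 were 84.8, 79.9 and 94.5. The 9 markers of endothelium and pericytes summed to 227 to 296 with NP24, 181 to 309 with Tβ10, 701 to 1802 with Tβ4 and 375 to 638 in controls; Cldn5 was at 0 in 12 of the 16 libraries. Mitochondrial ribosomal RNA took 7.15 ± 1.03% of reads with NP24, 7.20 ± 1.96% with Tβ10, 15.3 ± 6.71% with Tβ4 and 11.3 ± 2.07% in controls (mean ± SD, n = 4 each), with 24.3% in Tβ4 library 1. The mean microglial, fibroblast and endothelial sums and the mean mitochondrial share were thus lower than in controls with NP24 and with Tβ10 and higher with Tβ4. The sum of the 9 astrocyte markers had a mean of 10903 with NP24, 10794 with Tβ10, 13219 with Tβ4 and 9378 in controls. Of these 9, Slc1a3 and Slc1a2 had the highest control means (3686 and 2557). The mean sum of the 9 oligodendrocyte lineage markers was 7997 with NP24, 8867 with Tβ10, 10097 with Tβ4 and 10519 in controls. The part of these values in the results below was not tested. In such bulk samples, fewer cells of a type and less RNA per cell cannot be told apart.

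The promoters of 4 of the 10 genes are printed because they carry the matches found to binding motifs of the branch, or, for Trib3, because its RNA showed the lowest level relative to the control with NP24. Each line holds the 250 bases before the RefSeq start of the gene in build GRCm38.p6, read 5′ to 3′ on the strand of the gene, with motif matches in capitals. The windows are chr1:191183334-191183583 (minus strand) for Atf3, chr2:119350992-119351241 (plus strand) for Chac1, chr7:45526269-45526518 (minus strand) for Ppp1r15a and chr2:152344061-152344310 (minus strand) for Trib3.
Atf3: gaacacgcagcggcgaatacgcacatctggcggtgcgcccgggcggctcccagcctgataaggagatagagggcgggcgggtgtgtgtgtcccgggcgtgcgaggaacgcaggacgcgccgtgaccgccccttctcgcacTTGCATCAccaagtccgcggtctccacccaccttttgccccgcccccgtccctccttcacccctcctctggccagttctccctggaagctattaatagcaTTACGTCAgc
Chac1: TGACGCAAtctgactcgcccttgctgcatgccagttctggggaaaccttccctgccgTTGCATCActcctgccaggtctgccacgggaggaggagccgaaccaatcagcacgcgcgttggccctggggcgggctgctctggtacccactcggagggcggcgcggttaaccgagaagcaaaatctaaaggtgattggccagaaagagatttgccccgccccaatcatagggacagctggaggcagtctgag
Ppp1r15a: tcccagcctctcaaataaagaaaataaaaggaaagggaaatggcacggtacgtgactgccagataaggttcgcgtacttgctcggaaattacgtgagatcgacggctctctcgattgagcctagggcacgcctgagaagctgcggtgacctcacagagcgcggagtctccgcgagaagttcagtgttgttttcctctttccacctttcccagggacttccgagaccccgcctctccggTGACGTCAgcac
Trib3: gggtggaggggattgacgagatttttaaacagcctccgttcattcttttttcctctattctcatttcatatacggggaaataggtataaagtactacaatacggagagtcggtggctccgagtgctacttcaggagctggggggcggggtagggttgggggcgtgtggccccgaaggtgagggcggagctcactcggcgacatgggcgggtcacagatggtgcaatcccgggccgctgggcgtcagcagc
Motifs were searched on both strands. The C/EBP-ATF composite element (TGATGNAA), to which ATF4 binds with C/EBP proteins, matched in Atf3, 103 to 110 bases before the start, and in Chac1, 186 to 193 bases before it, on the reverse strand in both, so that the printed line reads TTGCATCA. A variant with C in place of the second T (TGACGNAA) matched in the same pair of genes, at 3 to 10 bases in Atf3 and 243 to 250 bases in Chac1. The cyclic AMP response element (TGACGTCA) matched in Ppp1r15a, 5 to 12 bases before the start. The endoplasmic reticulum stress element, the binding sequence of ATF6, matched in none of the 10. Of 32851 promoter windows of this length, 3.45% held the first motif, 1.39% the second, 1.55% the third and 0.113% the element of ATF6. Atf4, Atf5 (whose 2 windows were both searched), Ddit3, Cebpb, Sesn2, Ddit4 and Trib3 had no match in these windows.

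With NP24, 6 of the 10 regulators fell against the DPBS control, Atf4, Atf3, Atf5, Ddit3, Trib3 and Sesn2, and none rose. With Tβ10, 5 fell, Atf3, Atf5, Ddit3, Trib3 and Sesn2, and none rose. With Tβ4, none passed the test. The lowest levels relative to control belonged to Trib3 with NP24 (4.61-fold lower) and to Atf3 and Trib3 with Tβ10 (5.05-fold and 4.72-fold lower). Calls are at an adjusted p under 0.05 from limma on log2 of the normalized count plus 1, with Benjamini-Hochberg adjustment over all genes tested; a fold change on this scale understates that of genes with few counts. Among all 21774 genes tested for NP24, 1.47% were called lower and 1.16% higher (2.63% in either direction). For Tβ10 the shares were 0.533% lower and 0.1% higher (0.633% in either direction) of 21960 genes, and for Tβ4 0% of 22205 genes in either direction. The median log2 difference of the 10 was -0.80 with NP24, -0.99 with Tβ10 and -0.16 with Tβ4, and that of all genes lay within 0.01 of 0 in each of these comparisons (-0.0038 with NP24, -0.0049 with Tβ10 and -0.0033 with Tβ4). The 3 comparisons share the same 4 control libraries.

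**Figure D1:**
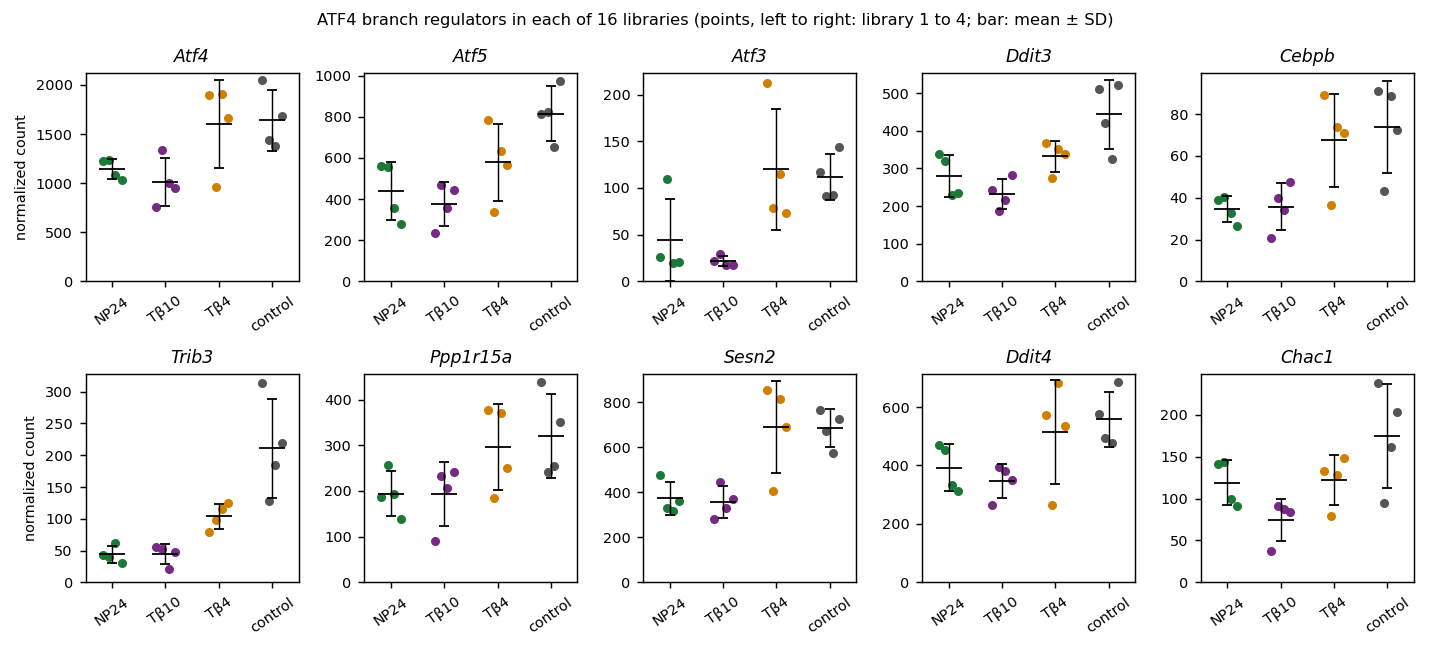
Normalized counts (linear axes from 0) of the 10 regulators in each library, with groups NP24, Tβ10, Tβ4 and control from left to right; points are libraries 1 to 4 and bars the mean ± SD of 4. Trib3 lay between 21.6 and 62.6 in all 8 NP24 and Tβ10 libraries, between 79.3 and 124 with Tβ4 and between 127 and 313 in controls.

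Atf4 (chromosome 15, 80255184 to 80257541, plus strand; coordinates here and below from GENCODE M21 on GRCm38) encodes the factor that gives the branch its name. Its normalized counts were 1227, 1235, 1078 and 1033 in NP24 libraries 1 to 4, 758, 1342, 1004 and 953 with Tβ10, 1895, 956, 1903 and 1662 with Tβ4, and 2054, 1437, 1381 and 1679 in controls. All NP24 and all Tβ10 libraries lay below the lowest control, whereas Tβ4 library 2 alone did so among the Tβ4 libraries. Atf4 fell with NP24 by 0.50 on the log2 scale (SE 0.12, 95% interval -0.75 to -0.26, adjusted p = 0.0255), a call that held in 5 of 8 fits without a library. With Tβ10 the difference was -0.70 ± 0.16 and just missed the threshold (adjusted p = 0.0505). With Tβ4 it was -0.06 (95% interval -0.51 to 0.38, adjusted p = 0.982).

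Atf5 (chromosome 7, 44812256 to 44816658, minus strand) encodes a relative of ATF4 whose translation is likewise raised when eIF2 is phosphorylated, and which also controls the mitochondrial stress response. It measured 561, 555, 358 and 278 with NP24, 234, 470, 355 and 443 with Tβ10, 783, 335, 632 and 565 with Tβ4, and 814, 823, 652 and 975 in controls. No NP24 or Tβ10 library reached the lowest control. Atf5 fell with both, by log2 differences of -0.94 ± 0.18 with NP24 (adjusted p = 0.00738) and -1.15 ± 0.19 with Tβ10 (adjusted p = 0.00638). With Tβ4 the difference was -0.55 (95% interval -1.02 to -0.07, adjusted p = 0.659), and 1 of the 4 libraries, library 1, lay inside the control range, 3 below it.

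Atf3 (chromosome 1, 191170296 to 191218039, minus strand) encodes an immediate early repressor and activator that injured neurons are known to express. NP24 libraries held 25.9, 110, 19.7 and 20.5 counts, Tβ10 libraries 21.4, 28.8, 18.0 and 17.1, Tβ4 libraries 212, 78.3, 115 and 73.3, and controls 117, 91.8, 92.7 and 144. NP24 library 2 stood at the level of the controls while the other 3 were far below them, and every Tβ10 library was below every control. Atf3 fell with both, by log2 differences of -1.70 ± 0.43 with NP24 (adjusted p = 0.0361) and -2.33 ± 0.33 with Tβ10 (adjusted p = 0.00178). The NP24 call rests on the make-up of the groups, since it passed only 1 of 8 times when each library was left out in turn; without NP24 library 2 the difference was -2.27 (adjusted p = 0.00111). With Tβ4 the difference was -0.01 (95% interval -0.72 to 0.71), and Tβ4 library 1, at 212, was the highest of the 16. The Atf3 promoter window printed above lies inside the annotated span of the gene, upstream of a RefSeq start within it.

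Ddit3 (chromosome 10, 127290774 to 127296288, plus strand) encodes CHOP, a C/EBP-family factor linked to cell death under lasting stress. Its counts were 338, 319, 228 and 235 with NP24, 242, 187, 216 and 283 with Tβ10, 368, 274, 350 and 337 with Tβ4, and 510, 420, 325 and 521 in controls. The Tβ10 libraries all lay below the lowest control, and the NP24 libraries overlapped the controls through library 1. Ddit3 fell with both, by log2 differences of -0.66 ± 0.18 with NP24 (adjusted p = 0.0473) and -0.92 ± 0.18 with Tβ10 (adjusted p = 0.0242), and these calls held in 3 of 8 fits without a library for NP24 and in 4 of 8 for Tβ10. The difference with Tβ4 was -0.40 (95% interval -0.79 to -0.01, adjusted p = 0.699). A second identifier also named Ddit3 spans 127290829 to 127293753; its 105 exon bases all lie within exons of the first, so reads cannot be assigned to 1 of them, and it differed by -0.73 with NP24 (adjusted p = 0.108) and -0.91 with Tβ10 (adjusted p = 0.159). Ddit3 also shares 68 exon bases, 3.97% of its own, with Mars on the opposite strand, and the strand setting of the counting is not given in the sources used here.

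Cebpb (chromosome 2, 167688915 to 167690418, plus strand) encodes a C/EBP factor that pairs with ATF4 on composite elements. It measured 38.9, 40.5, 32.5 and 26.7 with NP24, 20.9, 39.9, 34.2 and 47.7 with Tβ10, 89.0, 36.3, 73.8 and 71.0 with Tβ4, and 91.0, 43.1, 88.6 and 72.2 in controls. Control library 2 stood with the NP24 and Tβ10 libraries, below the other controls. Differences of -1.03 ± 0.36 with NP24 (adjusted p = 0.127) and -1.03 ± 0.36 with Tβ10 (adjusted p = 0.257) did not pass. Tmem189 on the opposite strand shares 312 exon bases, 20.7% of those of Cebpb, and itself fell by 0.48 with NP24 (adjusted p = 0.0462), so the values of Cebpb are uncertain where reads of both were counted.

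Trib3 (chromosome 2, 152337422 to 152344032, minus strand) encodes a pseudokinase induced by ATF4 and CHOP that feeds back on ATF4 and binds the kinase AKT. Its counts were 43.5, 40.5, 62.6 and 30.2 with NP24, 55.7, 52.1, 21.6 and 47.7 with Tβ10, 79.3, 97.6, 115 and 124 with Tβ4, and 313, 127, 185 and 220 in controls. Every peptide library was below every control, the Tβ4 libraries included, and every Tβ4 library was above every NP24 and Tβ10 library. Trib3 fell with both, by log2 differences of -2.20 ± 0.30 with NP24 (95% interval -2.83 to -1.58, adjusted p = 0.000503) and -2.24 ± 0.33 with Tβ10 (adjusted p = 0.0024), and both calls held in each of 8 fits without a library. With Tβ4 the difference was -0.96 ± 0.28 (95% interval -1.56 to -0.36), which did not pass over all genes (adjusted p = 0.458), although among the 10 it was Trib3 alone whose Tβ4 and control libraries did not overlap.

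Ppp1r15a (chromosome 7, 45522916 to 45526268, minus strand) encodes GADD34, the phosphatase subunit that directs the removal of phosphate from eIF2 and so ends the response. It measured 186, 258, 192 and 139 with NP24, 89.5, 233, 207 and 240.5 with Tβ10, 378, 184, 370 and 251 with Tβ4, and 438, 242, 255 and 350 in controls. NP24 library 2 overlapped the controls, and the highest Tβ10 library came within 2 counts of the lowest control. The differences were -0.72 ± 0.21 with NP24 (adjusted p = 0.0708) and -0.79 ± 0.27 with Tβ10 (adjusted p = 0.251), and neither passed.

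Sesn2 (chromosome 4, 132492032 to 132510501, minus strand) encodes a leucine-binding inhibitor of mTORC1, the kinase complex that drives growth. NP24 libraries held 479, 330, 319 and 363 counts, Tβ10 libraries 280, 446, 329 and 370, Tβ4 libraries 855, 404, 814 and 692, and controls 768, 673, 575 and 728. The NP24 and Tβ10 libraries lay below all controls, and 3 of the 4 Tβ4 libraries lay among or above them. Sesn2 fell with both, by log2 differences of -0.89 ± 0.15 with NP24 (adjusted p = 0.00221, kept in 8 of 8 fits without a library) and -0.96 ± 0.16 with Tβ10 (adjusted p = 0.00613, kept in 7 of 8). With Tβ4 its mean was 691 ± 203 against 686 ± 83.3 in controls, and the log2 difference was -0.04 (95% interval -0.49 to 0.41).

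Ddit4 (chromosome 10, 59949669 to 59951834, minus strand) encodes REDD1, a second inhibitor of mTORC1 that hypoxia and glucocorticoids also induce. Its levels were 469, 454, 333 and 313 with NP24, 264, 395, 381 and 350 with Tβ10, 573, 266, 683 and 535 with Tβ4, and 575, 493, 476 and 685 in controls. All NP24 and all Tβ10 libraries were below all controls, but the differences of -0.51 ± 0.16 with NP24 (adjusted p = 0.0834) and -0.68 ± 0.16 with Tβ10 (adjusted p = 0.0661) did not pass. Ddit4 differed by -0.18 with Tβ4 (95% interval -0.72 to 0.35, adjusted p = 0.946). Chac1 (chromosome 2, 119351229 to 119354381, plus strand) encodes an enzyme that degrades glutathione. It stood at 142, 144, 99.7 and 91.6 with NP24, 37.0, 91.0, 87.4 and 83.6 with Tβ10, 133, 79.5, 128 and 149 with Tβ4, and 239, 94.6, 161 and 203 in controls. The Tβ10 libraries lay below all controls and the NP24 libraries did not, with differences of -1.22 ± 0.32 for Tβ10 (adjusted p = 0.106) and -0.49 ± 0.27 for NP24 (adjusted p = 0.359). Chac1 differed by -0.47 with Tβ4 (95% interval -1.12 to 0.19, adjusted p = 0.856), close to its difference with NP24. Of the 5 genes called for both NP24 and Tβ10, Atf3 holds motif matches in its promoter window printed above. Atf5, Ddit3, Trib3 and Sesn2 hold none in the windows searched. Chac1 and Ppp1r15a hold matches, and limma called them for neither of these peptides. DESeq2 called Chac1 with Tβ10 (adjusted p = 0.0120) and Ppp1r15a with NP24 (adjusted p = 0.0284), and edgeR called neither gene. Sites outside these windows were not searched, and a link between matches and calls was not tested.

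**Figure D2:**
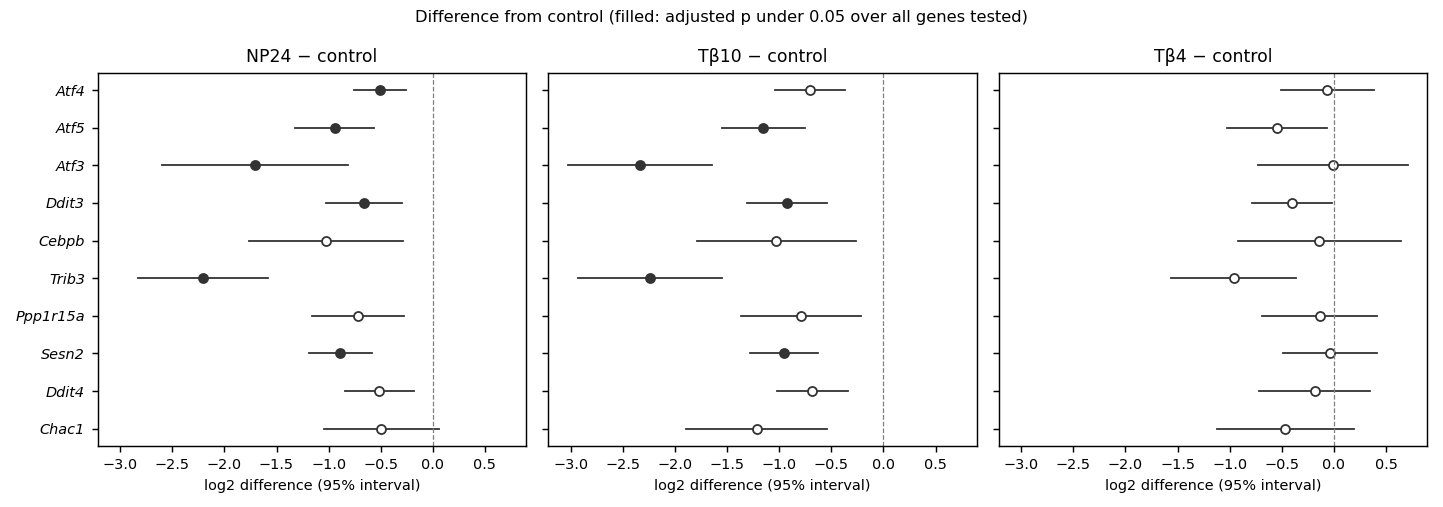
Log2 difference of each peptide group from the control for the 10 regulators (points, with 95% intervals; filled points have an adjusted p under 0.05 over all genes tested). Filled points number 6 for NP24, 5 for Tβ10 and 0 for Tβ4, and all lie left of 0.

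Per kilobase of exon, the order of mean levels in controls was Atf4 (695 ± 130 normalized counts per kilobase), Atf5 (409 ± 66.1), Ddit4 (318 ± 54.4), Ddit3 (259 ± 53.4), Sesn2 (197 ± 24.0), Ppp1r15a (109 ± 31.3), Chac1 (107 ± 37.9), Trib3 (99.4 ± 36.6), Atf3 (51.7 ± 11.5) and Cebpb (49.0 ± 14.7), each as mean ± SD of 4. Differences between neighbours from Ppp1r15a to Trib3, and between Atf3 and Cebpb, were smaller than their SDs. With NP24, Trib3 stood at 20.8 ± 6.36 per kilobase, close to Atf3 (20.4 ± 20.4) and Cebpb (23.0 ± 4.22).

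Counted by rank rather than by test, 6 of the 10 genes had every NP24 library below every control (Atf4, Atf5, Cebpb, Trib3, Sesn2 and Ddit4), where 4.77% of all genes tested did. For Tβ10 it was 9 of the 10, all but Cebpb, against 3.95% of all genes, and for Tβ4 1 of the 10, Trib3, against 2.17%. At an unadjusted p under 0.05, limma gave 9 of the 10 for NP24 (17% of all genes), 10 for Tβ10 (11.2%) and 3 for Tβ4 (7.06%), the last being Trib3, Atf5 and Ddit3. All 10 differences were negative against control in each of the 3 comparisons, as were 50.5% (NP24), 50.7% (Tβ10) and 50.6% (Tβ4) of those of all genes tested. The 10 stayed negative when the libraries were scaled by TMM or by library size. By edgeR and DESeq2, Atf3 and Sesn2 were on the other side of 0 with Tβ4. For Tβ4, 6 of the 10 were negative without control library 1, and 4 without Tβ4 library 2. In the authors' deposited table, 3 of the 10 passed an adjusted p under 0.05 for NP24 (Atf5, Trib3 and Sesn2), 6 for Tβ10 (Atf3, Atf5, Ddit3, Trib3, Sesn2 and Chac1) and 0 for Tβ4. The share of all genes that passed in that table was not counted, so these counts have no background beside them.

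The libraries of a group did not stand equally low. Relative to the control mean on the log2 scale, the average over the 10 genes was -0.81, -0.62, -1.11 and -1.32 in NP24 libraries 1 to 4 and -1.58, -0.92, -1.27 and -1.04 in Tβ10 libraries 1 to 4. In Tβ4 libraries 1 to 4 it was 0.02, -0.88, -0.07 and -0.26, and in controls 0.29, -0.31, -0.18 and 0.20. Tβ4 library 2 was below the lowest control for all 10 genes and was the lowest of its group for 8, while the other 3 Tβ4 libraries were below the lowest control for 1 to 3 of the 10. It also had the lowest mitochondrial ribosomal share of its group, 8.25%, and the lowest summed microglial, fibroblast and endothelial markers (1799, 3570 and 701); their part in its position was not tested.

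Without Tβ4 library 2, 4 of the 10 differences between Tβ4 and control were negative, with a median of 0.09, and 0 were called. Over all genes, that fit called 354 (219 lower and 135 higher), where the fit with all libraries called 0. Trib3 then differed by -0.94 (adjusted p = 0.112). Without control library 1, the highest control for 6 of the genes, the calls were 2 for NP24 (Trib3 and Sesn2) and 2 for Tβ10 (Atf3 and Trib3). The NP24 calls also numbered 3 without NP24 library 3 or without control library 4. Without NP24 library 2 the NP24 calls numbered 8, and without Tβ10 library 2 the Tβ10 calls numbered 8. With the spread estimated from all 16 libraries, 1 of the 10 was called for NP24 (Trib3) and 4 for Tβ10, and with DESeq2 9 for NP24 and 8 for Tβ10. Calls over all genes moved as well, from 572 for NP24 and 139 for Tβ10 in the main fits. They were 106 and 28 without control library 1, 120 and 62 with the spread of all 16 libraries, and 1181 and 425 with DESeq2. Without NP24 library 2 they were 760 for NP24, and without Tβ10 library 2 they were 315 for Tβ10. Trib3 was called in each of the 16 fits of NP24 or Tβ10 against control that left out 1 library.

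**Figure D3:**
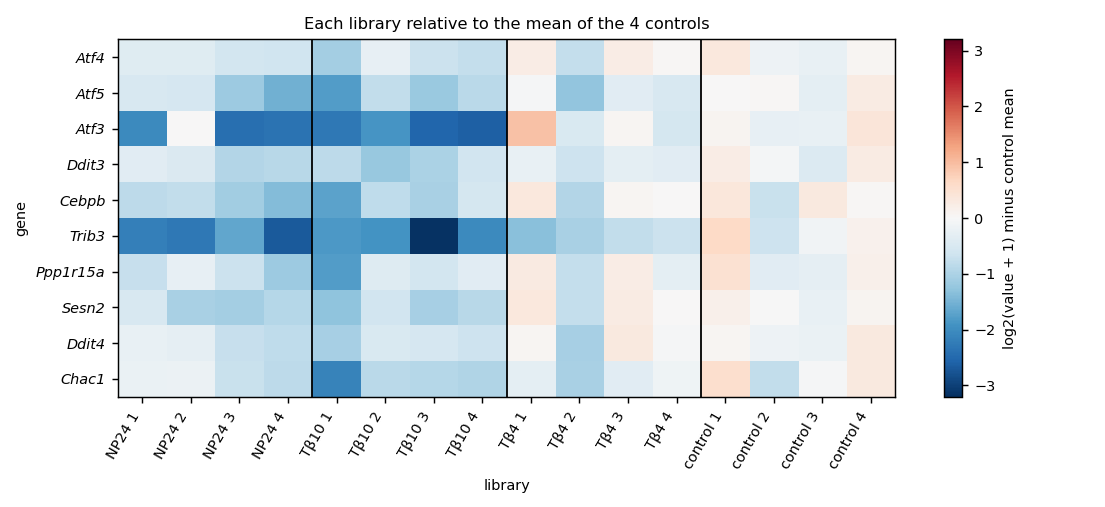
Log2(normalized count + 1) of the 10 regulators (rows) in the 16 libraries (columns), minus the mean of the 4 controls; blue is below and red above that mean, and black lines separate the groups. Tβ4 library 2 is blue in all 10 rows, with a mean of -0.88, and the Atf3 cell of NP24 library 2 is near 0.

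Set against each other rather than against the control, Tβ10 and Tβ4, the pair of β-thymosins, differed in 2 of the 10 genes and NP24 and Tβ4 in 1, and NP24 and Tβ10 in none. Atf3 was lower with Tβ10 than with Tβ4, with a log2 difference of -2.33 ± 0.45 (95% interval -3.27 to -1.39, adjusted p = 0.00996), and every Tβ10 library lay below every Tβ4 library. Sesn2 was lower than with Tβ4 both with NP24 (-0.85 ± 0.20, 95% interval -1.27 to -0.43, adjusted p = 0.0298) and with Tβ10 (-0.92 ± 0.20, 95% interval -1.34 to -0.50, adjusted p = 0.0246), although the Tβ4 libraries overlap both groups through library 2. The Sesn2 call was lost for both pairs with no filter (adjusted p = 0.0575 for NP24 and 0.0518 for Tβ10, limma) and in fits of the 8 libraries of a pair (adjusted p = 0.124 for NP24 and 0.153 for Tβ10). For NP24 the Sesn2 call was also lost by limma with library size scaling (adjusted p = 0.0522) and with the replicate block (adjusted p = 0.0561). Trib3 missed the threshold with differences of -1.24 for NP24 (adjusted p = 0.0535) and -1.28 for Tβ10 (adjusted p = 0.0597), in spite of ranges that did not overlap. Atf3 for NP24 against Tβ4 gave -1.70 (adjusted p = 0.0523). These values come from 1 fit of all 16 libraries, with p adjusted over all 24232 genes tested in each of the 3 pairs; the doses of the peptides are not given in the sources used here.

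All 10 differences were negative for NP24 against Tβ4 (median -0.51, and 9 negative with scaling to library size, where Chac1 gave 0.11) and for Tβ10 against Tβ4 (median -0.70). Over all genes tested, 50.7% of the differences were negative for NP24 against Tβ4 and 50.3% for Tβ10 against Tβ4. Of all genes, 1.65% were called lower and 0.442% higher (2.09% in either direction) for NP24 against Tβ4, and 1.05% lower and 0.297% higher (1.35% in either direction) for Tβ10 against Tβ4. Ranges lay wholly below Tβ4 for 1 of the 10 with NP24 (Trib3; 4.65% of all genes) and for 2 with Tβ10 (Trib3 and Atf3; 4.02%). Unadjusted, 5 of the 10 had a p under 0.05 for NP24 against Tβ4 (15% of all genes) and 10 for Tβ10 against Tβ4 (12.4%). For NP24 against Tβ4 the number called was 0 without NP24 library 3 or 4 or without Tβ4 library 1, 3 or 4, it was 2 without Tβ10 library 3, it was 1 without NP24 library 2 (Atf3 in place of Sesn2), and it was 5 without Tβ4 library 2. For Tβ10 against Tβ4 it was 0 without Tβ4 library 1, 1 (Atf3) without Tβ10 library 1, 3 or 4 or Tβ4 library 3 or 4, and 6 without Tβ4 library 2. Calls over all genes moved too, from 507 for NP24 against Tβ4 and 326 for Tβ10 against Tβ4 in the main fit. They were 1392 and 1052 without Tβ4 library 2, and 104 and 87 without Tβ4 library 1.

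Between NP24 and Tβ10 limma called 0 of the 10 and 0% of all genes in either direction, as did edgeR and DESeq2; 1 of the 10, Chac1, had an unadjusted p under 0.05, against 2.44% of all genes. No gene of the 10 had every NP24 library below every Tβ10 library, against 1.35% of all genes, and 1, Chac1, had every NP24 library above every Tβ10 library (lowest 91.6 with NP24, highest 91.0 with Tβ10), against 0.755%. The differences ran from -0.0013 for Cebpb to 0.72 for Chac1, with a median of 0.18. Intervals were wide where levels were low: they spanned -0.66 to 0.73 for Trib3, -0.31 to 1.57 for Atf3 and 0.06 to 1.38 for Chac1, so that differences of up to these sizes lie within the intervals.

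**Figure D4:**
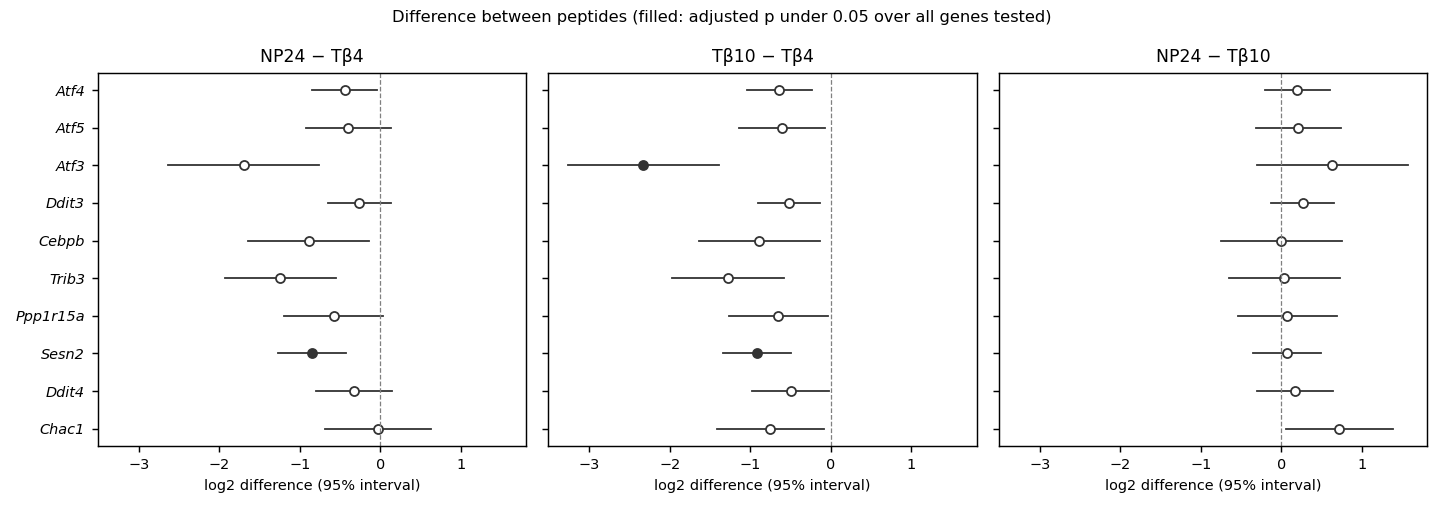
Log2 difference between pairs of peptide groups for the 10 regulators (points, with 95% intervals; filled points have an adjusted p under 0.05 over all genes tested). Filled points are Sesn2 for NP24 minus Tβ4, and Atf3 and Sesn2 for Tβ10 minus Tβ4; NP24 minus Tβ10 has none.

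The levels of the 10 genes varied together over the 16 libraries. Pearson's r between pairs of them on the log2 scale was 0.58 to 0.93 over 45 pairs (median 0.78), with the highest value for Atf4 with Sesn2; the libraries share group, depth and preparation, so this is a description. With the group means removed, the 36 pairs without Trib3 had r of 0.25 to 0.89 (median 0.68), and the 9 pairs with Trib3 had r of -0.02 to 0.22 (median 0.11). Trib3 thus differed between the groups while its variation within a group followed that of the other 9 little. The 5 of 24232 genes whose levels were most like those of Trib3 over the 16 libraries were Slc7a11 (r = 0.89), Abcc4 (0.88), Scpep1 (0.87), Pck2 (0.87) and 4930483K19Rik (0.86). For Atf4 they were Eif4b, Insig1, Slc7a5 and Mt1 (r = 0.95 each) and Hspa9 (0.94).

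Genes known as targets of ATF4 in amino acid supply and secretion, 28 listed and 27 tested, fell in 11 cases with NP24 and 9 with Tβ10, and none rose; their medians were -0.29 with NP24 and -0.60 with Tβ10. Slc7a11, which carries cystine into cells in exchange for glutamate, gave log2 differences of -2.26 with NP24 (adjusted p = 1.45e-07) and -2.02 with Tβ10 (adjusted p = 7.11e-05). Its heavy chain partner Slc3a2 gave -0.72 with NP24 (adjusted p = 0.00112) and -0.97 with Tβ10 (adjusted p = 0.0014). The other transporter gene among the 4 with the smallest p for NP24, Slc7a3 for basic amino acids, gave -1.33 with NP24 and -1.42 with Tβ10, and Stc2, a secreted glycoprotein, gave -1.25 with NP24 and -1.21 with Tβ10. Eif4ebp1, a translation inhibitor that mTORC1 controls, gave -0.87 with NP24 and -1.55 with Tβ10 (adjusted p = 0.00187). With Tβ4, limma called 0 of the 27, with a median of -0.10 and 6 at an unadjusted p under 0.05. Of the 28 genes, 22 had a promoter window of their own, and 8 of these held TGATGNAA, the motif found in Atf3 and Chac1. Jdp2 and Cebpg stand both here and among the relatives of the regulators below.

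The 10 cytosolic tRNA synthetase genes, also ATF4 targets, gave 0 limma calls with NP24 (4 at an unadjusted p under 0.05) and 0 with Tβ10 (6), with medians of -0.22 and -0.26, and Mars had the smallest p in both (-0.32 with NP24, adjusted p = 0.0986; -0.47 with Tβ10, adjusted p = 0.0756). Among 25 genes of the other branches of the unfolded protein response, those of ATF6 and IRE1, 1 fell with NP24, Herpud1 of the endoplasmic reticulum's degradation pathway (-0.72, adjusted p = 0.0227), and 0 with Tβ10 (2 at an unadjusted p under 0.05); the medians were 0.00047 with NP24 and -0.08 with Tβ10. None of 13 genes for the eIF2 kinases, eIF2 subunits and its exchange factor was called by limma with NP24 or with Tβ10 (2 each at an unadjusted p under 0.05; medians 0.06 and -0.08). Eif2s1, the subunit that is phosphorylated, differed by 0.41 with NP24 (adjusted p = 0.0708), and Eif2ak3, the kinase PERK, by -0.21 (adjusted p = 0.343).

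Relatives of the 10 regulators by sequence, 12 listed and 11 tested, gave 0 limma calls with NP24 and 0 with Tβ10 (4 each at an unadjusted p under 0.05; medians 0.05 and -0.03). Sesn1, the paralog of Sesn2, differed by 0.38 with NP24 (adjusted p = 0.0521), in the opposite direction to Sesn2. Ppp1r15b, the constitutive counterpart of Ppp1r15a, differed by -0.49 with NP24 (adjusted p = 0.0525), and Ddit4l, the paralog of Ddit4, by -1.05 (adjusted p = 0.0574). Targets of other stress factors that share members with the 10 were lower as well in part: of 11 p53 targets, 5 fell with NP24 and 4 with Tβ10, Sesn2 among them, with Cdkn1a, a cell cycle inhibitor, at -1.01 with NP24 and -0.92 with Tβ10. The medians of the p53 targets were -0.61 with NP24 and -0.53 with Tβ10. Of 8 tested genes known from hypoxia, Ddit4 included, Vegfa (-0.86 with NP24, -0.84 with Tβ10) and Slc2a1 (-1.32 with NP24, -1.14 with Tβ10) fell in both. The median of these 8 was -0.31 with NP24, where 5 were negative, and -0.05 with Tβ10, where 4 were negative. In the 6 lists of the last 2 paragraphs limma called 0 genes with Tβ4, with 0 or 1 per list at an unadjusted p under 0.05.

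**Figure D5:**
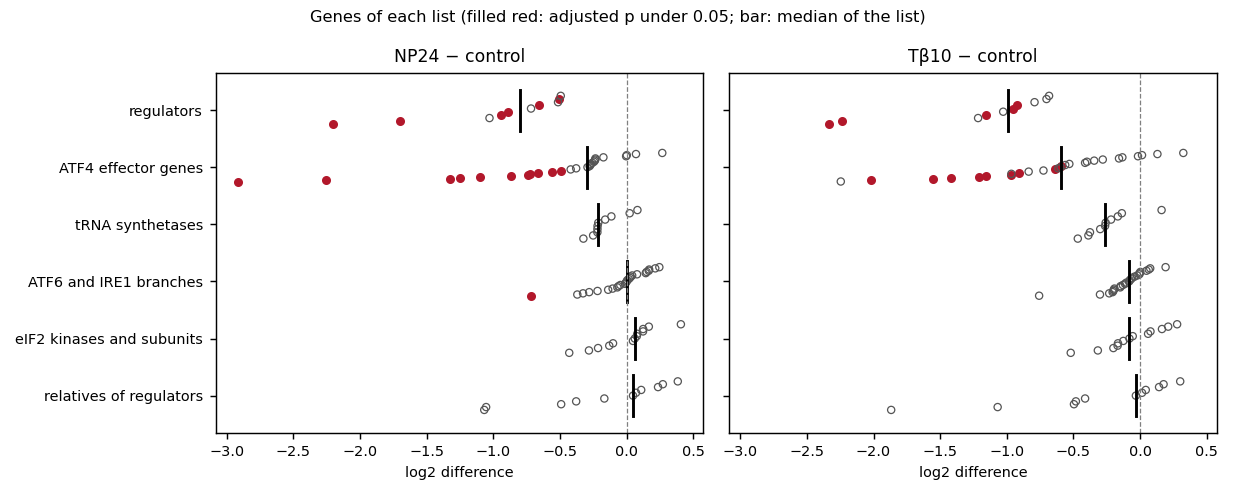
Log2 difference from control with NP24 (left) and Tβ10 (right) for each tested gene of 6 lists (1 row each; points, filled red where the adjusted p is under 0.05; vertical bar, the median of the list). Red points stand among the regulators (6 with NP24, 5 with Tβ10) and the ATF4 effector genes (11 with NP24, 9 with Tβ10), and 1 among the ATF6 and IRE1 branches with NP24.

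Markers of other cell types moved beside these genes. A marker was tested if 4 or more of the libraries compared held a value of 10 or more. It could thus enter through the 4 controls alone, while markers low in both groups dropped out. Col3a1, for example, had a mean of 9.53 with NP24 and 94.5 in controls. The numbers tested therefore differ between comparisons, and the share of a list that fell depends in part on this filter. With NP24, 4 of 9 tested microglia and macrophage markers fell (among them Lyz2 at -2.54 and Cd68 at -1.28), 5 of 7 fibroblast and meningeal markers (Col3a1 at -3.29), 2 of 4 endothelial and pericyte markers and 2 of 9 oligodendrocyte lineage markers. Among all genes tested with NP24, 1.47% were called lower and 1.16% higher. Cx3cr1, the most abundant microglia and macrophage marker, was not lower on average, with means of 1362 with NP24, 1399 with Tβ10 and 1304 in controls. Also with NP24, 1 of 9 astrocyte markers rose, Aqp4 (1.70), and 1 of 13 neuron markers, Syn1 (0.40). The median of the astrocyte list was 0.14, and 4 of its 9 differences were negative. With Tβ10, 2 of 11 microglia and macrophage markers fell, 3 of 7 fibroblast markers, 2 of 5 endothelial markers and 0 of 9 oligodendrocyte lineage markers (2 at an unadjusted p under 0.05). Among all genes tested with Tβ10, 0.533% were called lower and 0.1% higher. Of the 9 astrocyte markers 1 rose, Aqp4 (1.67), and the median of that list was 0.11. Of 13 neuron markers 0 passed (2 at an unadjusted p under 0.05). With Tβ4, limma called 0 markers of any of the 6 lists, with 0 to 5 per list at an unadjusted p under 0.05. Medians were 0.72 for microglia and macrophages, 1.16 for fibroblasts, 0.88 for endothelium and 0.49 for astrocytes. They were -0.09 for the oligodendrocyte lineage and -0.11 for neurons. In Tβ4 library 1, the microglial, fibroblast and endothelial markers summed highest. There the 10 regulators averaged 0.02 above the control mean on the log2 scale, with single genes from -1.33 (Trib3) to 0.95 (Atf3). The part of these cells in the levels of the 10 regulators was not tested.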

How the data were processed

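The 16 libraries were made from total RNA of cultured neurons with a strand-marking SMARTer kit, per the labels. Build GRCm38 and the tools featureCounts, DESeq2, FastQC, HISAT and HISAT2 were used by the authors per the submitters' processing notes; versions, annotation and strand setting are not given in the sources used here. The deposited library values are signal, namely counts after division by a size factor of each library, and 3 tables of 45724 genes hold the same values. All nonzero values (100%) were whole multiples of 1 read at a tolerance of 0.01 reads. The authors' deposited tables also give log2 fold changes with standard errors, a test statistic as a score, and p-values, which are printed only where that table is named.

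Values plus a pseudocount of 1 were tested on the log2 scale with limma-trend (limma 3.58.1, R 4.3.3). A gene entered a test if 4 or more of its libraries held a value of 10 or more, and p was adjusted by Benjamini-Hochberg with 0.05 as the threshold. Peptides were set against control in fits of the 8 libraries concerned, and pairs of peptides in 1 fit of all 16. Recovered reads were tested with edgeR 4.0.16 and DESeq2 1.42.0 as alternatives. Further alternatives were TMM or library size scaling, pseudocounts of 0.1 and 10, no filter, a replicate block, the spread of all 16 libraries (for pairs of peptides, a fit of their 8) and leaving out each library. The count tests gave 543 (NP24), 137 (Tβ10) and 0 (Tβ4) genes by edgeR and 1181, 425 and 57 by DESeq2. The fits were tested on simulated data. Replicates differed by more than counting noise (chi-square over degrees of freedom at least 9.47), so none was taken for a repeat of another. GENCODE M21 holds 45045 of the identifiers with the same version. Promoter sequences are RefSeq's on GRCm38.p6; all 10 genes matched.

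All 10 genes are reported in every comparison with control, and for pairs of peptides in counts and a figure. Of each other list, counts are given, with medians for part of the lists. Up to 4 genes of a list are named with the smallest p for NP24 or Tβ10, and for Trib3 and Atf4 the 5 most alike genes. The genes, lists and tests were chosen with earlier results of these data known, which weakens any count of the list as evidence.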

Additional observations from a re-analysis of the deposited data

Results flagged for a closer look

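In 2 of 40 groups of 4 libraries (10 genes in 4 groups), 1 library stood apart from the other 3 by a gap that took up most of the range of the group (Dixon's test at the 95% level), and chance flags about 1 in 20 groups. Atf3 was at 110 normalized counts in NP24 library 2, where the other 3 NP24 libraries held 19.7 to 25.9. Chac1 was at 37.0 in Tβ10 library 1, where the others held 83.6 to 91.0; this library is the deepest of the 16, with 38254320 reads. Differences between peptides themselves passed the test for Sesn2 with NP24 against Tβ4 (-0.85) and with Tβ10 against Tβ4 (-0.92), and for Atf3 with Tβ10 against Tβ4 (-2.33), all on the log2 scale by limma with adjustment over all genes. No explanation of these values was tested.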

How the results depend on the processing

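Of 1260 recomputed log2 differences of the 10 genes, 1144 kept their direction and side of the threshold, 52 lost the call, 27 gained it and 37 changed sign, the last with none past the threshold. Counts of the 10 genes called moved by over 1.5 times in these cases: for NP24 against control to 1 (Trib3) with the spread of all 16 libraries; for Tβ10 against control to 8 with DESeq2; for NP24 against Tβ4 to 2 with edgeR, 3 with DESeq2, and 0 with library size scaling, no filter, the replicate block or a fit of the 8 libraries; for Tβ10 against Tβ4 to 4 with DESeq2 and 1 with no filter or the fit of 8. Smaller moves were to 9 with DESeq2, 5 with edgeR, library size scaling or a pseudocount of 0.1 and 4 with no filter for NP24, and to 6 with a pseudocount of 10 and 4 with the spread of all 16 libraries for Tβ10. Leaving out each library gave 2 to 8 calls for NP24, 2 to 8 for Tβ10, 0 to 0 for Tβ4, 0 to 5 for NP24 against Tβ4, 0 to 6 for Tβ10 against Tβ4 and 0 for NP24 against Tβ10. Same-numbered libraries did not regularly deviate together from their group means (r -0.30 to 0.11 over 24 pairs, 1 over 0.1). These values cannot show whether libraries shared a culture or a preparation. The replicate block gave 6, 5, 0 and 0 calls for NP24, Tβ10, Tβ4 and NP24 against Tβ10 and 2 for Tβ10 against Tβ4. Signs changed for differences near 0. Against control, with Tβ4, Atf3 gave 0.10 with edgeR, 0.10 with DESeq2 and 0.000133 with a pseudocount of 10, and Sesn2 0.0125 with edgeR and 0.0120 with DESeq2. For NP24 against Tβ4, Chac1 gave 0.11 with library size scaling. For NP24 against Tβ10, Trib3 gave -0.0103 with edgeR, -0.0109 with DESeq2 and -0.0052 with library size scaling, and Cebpb 0.000046 with a pseudocount of 0.1. Leaving out each library gave, with Tβ4 against control, -0.33 to 0.18 for Atf3, -0.16 to 0.17 for Atf4, -0.16 to 0.20 for Sesn2, -0.27 to 0.0706 for Ppp1r15a, -0.37 to 0.13 for Cebpb and -0.35 to 0.11 for Ddit4. For Chac1 with NP24 against Tβ4 it gave -0.22 to 0.0869. For NP24 against Tβ10 it gave -0.23 to 0.15 for Cebpb, -0.26 to 0.22 for Ppp1r15a, -0.0592 to 0.18 for Sesn2, -0.27 to 0.20 for Trib3 and -0.0349 to 0.33 for the second Ddit3 row. The cause of these changes was not tested.

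Over all genes, DESeq2 called 1181 for NP24 (against 572 by limma), 425 for Tβ10 (139), 57 for Tβ4 (0), 1168 for NP24 against Tβ4 (507) and 811 for Tβ10 against Tβ4 (326). The spread of all 16 libraries gave 120, 62 and 2 for NP24, Tβ10 and Tβ4, and fits of 8 libraries 109 for NP24 against Tβ4 and 77 for Tβ10 against Tβ4. No filter gave 365 for NP24 and 184 for Tβ10 against Tβ4, and the replicate block 91 for Tβ10, 2 for Tβ4 and 214 for Tβ10 against Tβ4. Leaving out each library gave 106 to 760 for NP24, 28 to 315 for Tβ10, 0 to 354 for Tβ4, 104 to 1392 for NP24 against Tβ4 and 87 to 1052 for Tβ10 against Tβ4. Scaling to library size turned the balance of lower and higher calls to 256 and 508 for NP24, 67 and 56 for Tβ10, 269 and 363 for NP24 against Tβ4, and 165 and 449 (614 in all) for Tβ10 against Tβ4; it moved the median of all genes to 0.13 and 0.18 in these last 2 pairs. With 1 read worth up to 1.71 normalized counts, precision is least for Atf3, Cebpb and Trib3, whose levels in single libraries were as low as 17.1, 20.9 and 21.6.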
